A study of Mus musculus with 18 samples.

Results

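The insulin-like growth factor binding proteins, IGFBPs, are secreted proteins that bind the growth factors IGF-I and IGF-II outside the cell. They were followed here as the rows named Igfbp1 to Igfbp7 in a table of RNA levels from mouse colon, 7 of 27131 rows, each name matching 1 row. Bound to an IGFBP, an IGF cannot reach its receptor, and it is set free when proteases such as pappalysin cut the binding protein, so the same IGFBP can store, carry or withhold its ligand. IGFBPs also attach to matrix and cell surfaces, and fibroblasts, smooth muscle and endothelial cells are known sources of several of them.

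Polyadenylated RNA of colon tissue was compared between 9 libraries of C57BL/6 mice with the genotype Hif2a +/+ (WT) and 9 of C57BL/6 mice labelled Hif2a LFL (HIF2), which the labels describe as overexpressing HIF2 in colon and which the design text writes as LSL. HIF-2α is the oxygen-regulated transcription factor encoded by Epas1, and the series title places it in the epithelium. All mice were untreated. The promoter or Cre that drives the allele, the age and sex of the mice, and whether each library is 1 mouse are stated in none of the sources used, and each p-value therefore reflects library-to-library spread, which may be technical. Libraries carry the numbers 0 to 8 in each group. Values are FPKM, fragments scaled by transcript length and by library size, a unit in which the levels of genes can be set side by side. How library size was scaled is not stated.

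Several facts of the whole series touch what follows. Summed FPKM lay between 686539 and 937505 per library, and read depth is unknown. Epithelial markers were high in all 18 libraries (9 genes, summed FPKM 6047 to 8923 in WT and 6219 to 9131 in HIF2), as the tissue label says. Epas1 itself averaged 22.7 ± 6.36 FPKM over HIF2 against 18.8 ± 3.09 over WT libraries (SD, n = 9 each), a difference that limma did not call (adjusted p = 0.246). The HIF target list (14 genes, 10 higher and 0 lower in HIF2) summed to between 235 and 313 FPKM in WT, to 298 and 264 in HIF2 replicates 2 and 4, and to between 937 and 3643 in the other HIF2 libraries. Stromal RNA divided HIF2 differently. Smooth muscle markers (12 genes, 11 higher in HIF2) summed to between 1387 and 3426 FPKM in HIF2 replicates 0 to 5, to between 69.0 and 181 in replicates 6 to 8, to 1121 in WT replicate 3 and to between 34.3 and 182 in the other WT libraries. Fibroblast markers (11 genes, 9 higher in HIF2) summed to between 810 and 941 FPKM in HIF2 replicates 0 to 5, to between 119 and 255 in replicates 6 to 8 and to between 35.3 and 243 in WT. HIF2 replicate 0 also held 760 FPKM of neutrophil markers against at most 8.84 in any other library, with Mpo and Elane at 0 in all 18.

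Of the 7 genes, 6 rose in HIF2 and 0 fell, and Igfbp1 was listed at 0 in every library. Among all 13976 tested genes, those with a mean of at least 1 FPKM, 11% were higher and 11.1% lower (limma on log2(FPKM + 1), Benjamini-Hochberg adjusted p under 0.05). Each of the 6 rose by at least 1 on the log2 scale, as did 4.89% of tested genes. The median log2 difference was 2.102 over the 6 tested members and -0.02 over all tested genes. Igfbp2 and Igfbp6, with WT means under 1 FPKM, passed that filter only through HIF2 libraries, so the count of 6 is a description. No member separated the groups completely. The number of HIF2 libraries above the WT maximum was 6 for Igfbp2, Igfbp4, Igfbp5 and Igfbp7, 7 for Igfbp6 and 8 for Igfbp3, whereas 0.758% of tested genes had all 9 HIF2 libraries above all 9 WT libraries. In bulk tissue, more cells of a type and more RNA per cell cannot be told apart.

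**Figure D1:**
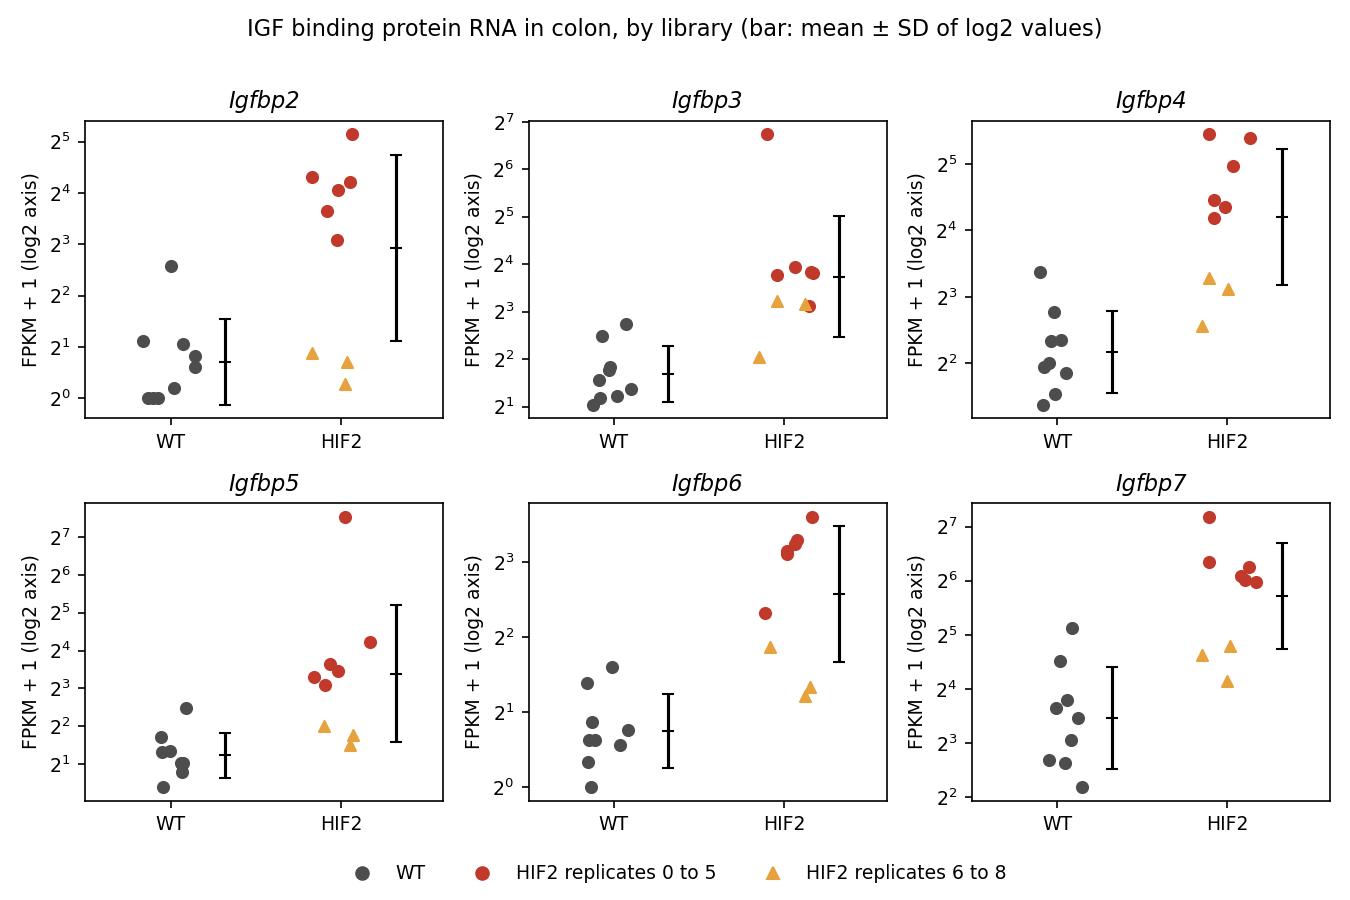
RNA of the 6 detected IGF binding protein genes in each library, as FPKM + 1 on a log2 axis, with grey points for WT (n = 9), red points for HIF2 replicates 0 to 5, orange triangles for HIF2 replicates 6 to 8, and bars for the mean ± SD of the log2 values. The red points lie above all WT points in each panel, and the orange triangles lie inside the WT range for Igfbp2, Igfbp4, Igfbp5 and Igfbp7. For each of these genes the highest WT point is replicate 3.

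By GENCODE M21 coordinates on GRCm38 (mm10), the genes form 2 close pairs and 3 single loci. On chromosome 11, Igfbp1 (7197782 to 7202546, plus strand) and Igfbp3 (7206086 to 7213923, minus strand) are 3539 bases apart, and on chromosome 1, Igfbp2 (72824503 to 72852474, plus strand) and Igfbp5 (72857932 to 72874884, minus strand) are 5457 bases apart. Both pairs point toward each other. Igfbp4 lies elsewhere on chromosome 11 (99041244 to 99054392, plus strand), Igfbp6 on chromosome 15 (102144362 to 102149511, plus strand) and Igfbp7 on chromosome 5 (77349240 to 77408041, minus strand). Within the first pair, Igfbp3 was above 0 in all 18 libraries and Igfbp1 was listed at 0 in all 18.

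The 250 bases before the gene start are printed for 4 members whose values differ most in kind, since HIF dimers bind a short core, ACGTG or GCGTG, in the DNA of their targets. Igfbp2 was highest where smooth muscle RNA was highest, Igfbp3 was above most WT libraries throughout HIF2, Igfbp5 had its peak in a single library, and Igfbp7 was the most abundant member. Capitals mark ACGTG and GCGTG on either strand, and each run reads 5′ to 3′ on the gene's own strand, from RefSeq on GRCm38.p6.
Igfbp2, chr1:72824230-72824479, plus strand: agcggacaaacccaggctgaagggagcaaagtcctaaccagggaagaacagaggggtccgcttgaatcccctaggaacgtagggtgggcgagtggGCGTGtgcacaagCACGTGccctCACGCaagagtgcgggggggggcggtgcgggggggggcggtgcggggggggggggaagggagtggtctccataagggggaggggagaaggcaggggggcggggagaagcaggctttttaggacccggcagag
Igfbp3, chr11:7213924-7214173, minus strand: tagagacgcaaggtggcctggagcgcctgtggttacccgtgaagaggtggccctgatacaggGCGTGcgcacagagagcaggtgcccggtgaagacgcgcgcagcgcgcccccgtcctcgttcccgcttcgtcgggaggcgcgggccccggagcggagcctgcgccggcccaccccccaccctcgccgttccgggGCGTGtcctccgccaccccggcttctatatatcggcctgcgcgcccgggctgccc
Igfbp5, chr1:72874866-72875115, minus strand: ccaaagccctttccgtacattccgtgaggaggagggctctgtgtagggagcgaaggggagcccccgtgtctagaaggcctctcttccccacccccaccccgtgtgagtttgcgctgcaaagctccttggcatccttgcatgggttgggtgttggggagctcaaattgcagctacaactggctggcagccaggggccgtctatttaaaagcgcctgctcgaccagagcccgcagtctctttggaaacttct
Igfbp7, chr5:77408046-77408295, minus strand: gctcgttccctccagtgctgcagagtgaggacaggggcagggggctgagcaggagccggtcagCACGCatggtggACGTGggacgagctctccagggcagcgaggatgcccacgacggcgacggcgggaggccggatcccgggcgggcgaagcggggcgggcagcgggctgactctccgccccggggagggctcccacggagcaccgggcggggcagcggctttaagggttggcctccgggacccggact
All 7 genes had a RefSeq window. The Igfbp2 window holds 4 matches, of which a pair overlap in the palindrome CACGTG and are counted once per strand. Igfbp3 and Igfbp7 hold 2 each, Igfbp1 holds 1, and Igfbp4, Igfbp5 and Igfbp6 hold 0. Of 32851 RefSeq windows of this length, 38.6% hold at least 1 match, so 4 of 7 genes is a description only. A second annotated start of Igfbp2 has 0 matches. GGGCGG, the core bound by Sp1, occurs 3 times before Igfbp2 and 4 times before Igfbp7 (32.7% of all windows hold it), TATAA occurs only before Igfbp4 and Igfbp6 (22.8%), and the CArG box bound by SRF, a smooth muscle regulator, before none of the 7 (1.47%). A match is a stretch of letters and not a measured site.

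Igfbp7, which binds IGFs weakly and is deposited around blood vessels, was the most abundant family member in 17 of 18 libraries and held a median of 56.1% of the summed IGFBP FPKM in WT and 50.5% in HIF2. Its lowest, median and highest values were 3.56, 10.1 and 33.9 FPKM in WT and 16.8, 63.3 and 144 FPKM in HIF2. HIF2 replicates 0 to 5 ran from 62.0 to 144 FPKM and replicates 6 to 8 from 16.8 to 26.9, inside the WT range. The top of that range came from WT replicate 3, and 8 of 9 HIF2 libraries exceeded the 21.9 FPKM that was highest in the other WT libraries. The WT mean of 12.4 ± 9.78 and HIF2 mean of 62.1 ± 38.8 FPKM (SD, n = 9 each) gave a log2 difference of 2.25 (SE 0.42, limma adjusted p = 0.00101, exact permutation p = 0.00037).

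Igfbp4, which binds both IGFs and is the classic substrate of pappalysin, came second in all 9 WT libraries. It ran from 1.61 through a median of 3.03 to 9.36 FPKM in WT and from 4.90 through 19.4 to 42.7 FPKM in HIF2. The WT maximum came from replicate 3, and 8 of 9 HIF2 libraries exceeded the 5.82 FPKM that was highest in the other WT libraries. The means of 3.92 ± 2.41 and 21.4 ± 13.98 FPKM (SD, n = 9 each) gave a log2 difference of 2.02 (SE 0.37, limma adjusted p = 0.000888, exact permutation p = 0.00037).

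Igfbp3, the main carrier of IGFs in blood, forms a ternary complex with IGF and the acid-labile subunit. Below Igfbp7 and Igfbp4 in every WT library, it ran from 1.06 through a median of 1.96 to 5.65 FPKM. In HIF2 it ran from 3.11 through 12.7 to 106 FPKM, and only replicate 8 lay inside the WT range. Replicates 6 and 7, which were low in smooth muscle RNA, had 7.95 and 8.41 FPKM. That was as much as the 7.68 FPKM of replicate 5, where smooth muscle markers were highest but Igfbp3 was the lowest of replicates 0 to 5. Replicates 1 to 4, also rich in smooth muscle RNA, had 12.7 to 14.4 FPKM, and replicate 8, low in it, had 3.11 FPKM. The mean rose from 2.49 ± 1.599 to 20.7 ± 32.2 FPKM (SD, n = 9 each), or to 10.1 ± 3.89 without HIF2 replicate 0. The log2 difference was 2.05 (SE 0.43, limma adjusted p = 0.00257, exact permutation p = 0.000206), and without HIF2 replicate 0 it was 1.68 with an adjusted p of 0.000511.

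Igfbp5, the most conserved member and a matrix-bound one that can also join the ternary complex, was near 1 FPKM in WT, from 0.317 through a median of 1.04 to 4.56 FPKM. HIF2 ran from 1.83 through 8.85 to 185 FPKM. The WT maximum came from replicate 3, and 8 of 9 HIF2 libraries exceeded the 2.29 FPKM that was highest in the other WT libraries. The top value, in replicate 0, exceeded the next library, replicate 5 at 17.7 FPKM, and there Igfbp5 passed Igfbp7 and made up 37.6% of the family sum, against at most 10.9% in any WT library. The means of 1.57 ± 1.26 and 27.5 ± 59.1 FPKM (SD, n = 9 each) gave a log2 difference of 2.15 (SE 0.59, limma adjusted p = 0.0129, exact permutation p = 0.000782). Without replicate 0 the HIF2 mean was 7.85 ± 5.42 FPKM and the log2 difference 1.64, with an adjusted p of 0.00409.

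Igfbp2, a carrier with an integrin-binding motif, differed widely within HIF2. It was at 0 in 3 WT libraries, with a median of 0.528 and a maximum of 4.95 FPKM in WT replicate 3. HIF2 replicates 0 to 5 ran from 7.51 to 34.5 FPKM, all above WT, whereas replicates 6 to 8 were at 0.642, 0.839 and 0.214 FPKM. The means of 0.964 ± 1.57 and 11.9 ± 11.2 FPKM (SD, n = 9 each) gave a log2 difference of 2.22 (SE 0.62, limma adjusted p = 0.0147, exact permutation p = 0.00543). That call was lost in an exact rank test over all genes (adjusted p = 0.0515), which called 8.78% of genes higher.

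Igfbp6, which prefers IGF-II, was the lowest of the detected members in HIF2 means. WT ran from 0 through a median of 0.546 to 2.04 FPKM and HIF2 from 1.33 through 7.67 to 11.2 FPKM. Replicates 7 and 8, at 1.52 and 1.33 FPKM, were the HIF2 libraries inside the WT range, and replicate 6 at 2.66 FPKM lay just above it. The means of 0.779 ± 0.651 and 5.96 ± 3.63 FPKM (SD, n = 9 each) gave a log2 difference of 1.82 (SE 0.33, limma adjusted p = 0.000746, exact permutation p = 0.000247). Igfbp1, made mainly by liver and known elsewhere as a HIF target, was listed at 0 in all 18 libraries, and no fold can be given.

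Within a library the order of levels was steadier in WT than in HIF2. In all 9 WT libraries Igfbp7 exceeded Igfbp4, which exceeded Igfbp3, which exceeded Igfbp5 and Igfbp6. The lower neighbours were not ordered so firmly: Igfbp5 exceeded Igfbp6 in 7 and Igfbp2 in 8 WT libraries, and Igfbp6 exceeded Igfbp2 in 6. In HIF2, Igfbp4 exceeded Igfbp3 in 7 libraries, while Igfbp3 exceeded Igfbp2 in 5. The share of Igfbp2 in the family sum ranged from 0.759% to 1.88% in HIF2 replicates 6 to 8, was 1.53% in replicate 0, and lay between 9.45% and 18.5% in replicates 1 to 5. The share of Igfbp3 was 4.12% to 21.6% in HIF2, against 7.93% to 14.4% in WT.

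The family sum was higher in the libraries rich in stromal markers than in the others, but HIF2 replicate 0 stood outside that order. The 7 genes together summed to between 8.33 and 60.1 FPKM in WT (median 15.9), to between 123 and 491 in HIF2 replicates 0 to 5 and to 49.9, 44.5 and 28.2 in HIF2 replicates 6, 7 and 8. WT replicate 3, with the most smooth muscle and fibroblast RNA of its group, also had the highest IGFBP sum of its group. HIF2 replicate 0, with the highest IGFBP sum of all (491), had the lowest smooth muscle (1387) and fibroblast (810) sums of replicates 0 to 5. Replicate 1, with the most fibroblast RNA (941), had an IGFBP sum of 157. In HIF2 replicates 4, 2, 3, 1 and 5, smooth muscle sums were 2626, 2934, 2942, 3284 and 3426 FPKM. Their IGFBP sums were 123, 134, 132, 157 and 187 FPKM, in nearly the same order. HIF2 replicate 8 had 28.2 FPKM of IGFBP at 119 FPKM of fibroblast markers, beside 21.6 at 117 in WT replicate 4. HIF2 replicate 6 had 49.9 at 209, beside 35.8 at 194 in WT replicate 8, and HIF2 replicate 7 had 44.5 at 255, beside 60.1 at 243 in WT replicate 3. In these 3 pairs of nearest fibroblast sums, HIF2 was the higher in the first and second and WT in the last. The pairs were not matched for smooth muscle RNA, with sums of 69.0 and 108, 151 and 182, and 181 and 1121 FPKM (HIF2, then WT). HIF target RNA was ordered otherwise. HIF2 replicates 6 to 8 had the highest HIF target sums, 3023 to 3643 FPKM, and the lowest IGFBP sums of their group, whereas replicates 2 and 4, with HIF target sums inside the WT range, had 134 and 123 FPKM of IGFBP. A large part of the HIF target sum was Slc11a2, at 1525 to 2101 FPKM in replicates 6 to 8 and at most 469 in replicates 0 to 5. Egln3 stood less apart, at 473 to 549 and at most 449 FPKM, as did Ankrd37, at 420 to 459 and at most 274 FPKM. Endothelial markers (12 genes, 10 higher in HIF2) summed to between 6.14 and 27.5 FPKM in WT, 21.2 and 27.4 in HIF2 replicates 6 to 8 and 43.0 and 134 in replicates 0 to 5. The part of stromal RNA in the group difference was not tested beyond the fits given next.

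**Figure D2:**
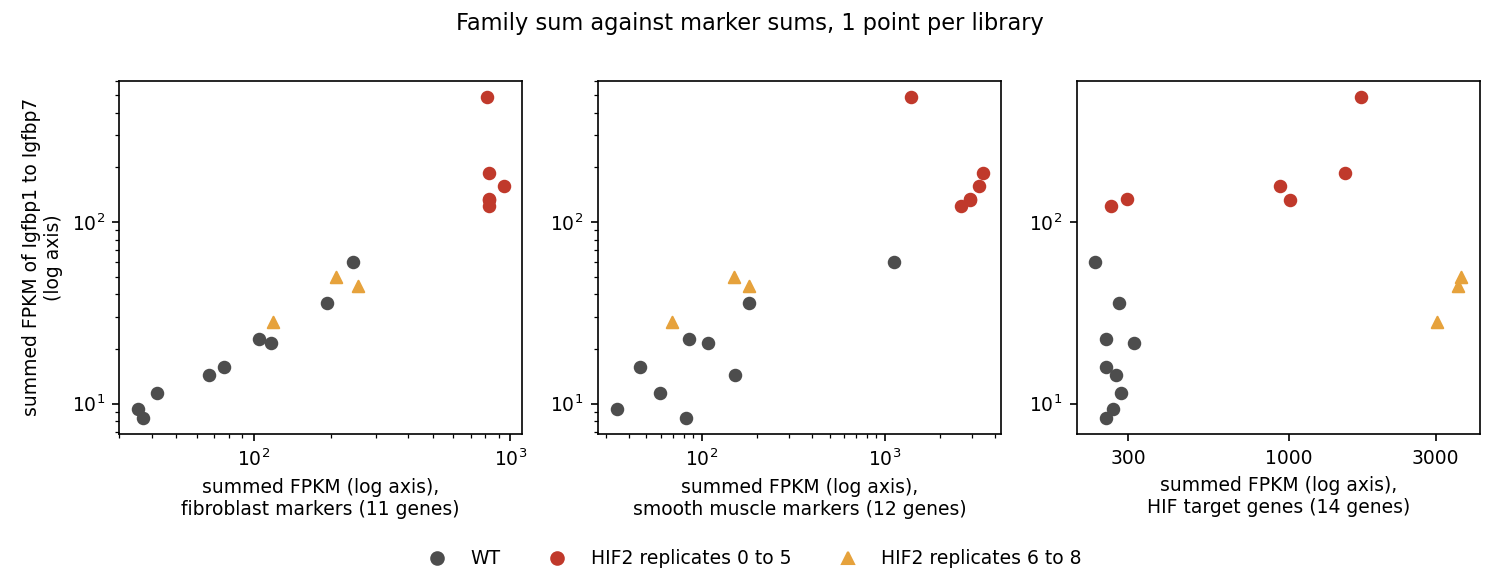
Summed FPKM of Igfbp1 to Igfbp7 in each library (vertical log axis) against the summed FPKM of fibroblast, smooth muscle and HIF target genes (horizontal log axes), with 1 point per library and colours for WT, HIF2 replicates 0 to 5 and HIF2 replicates 6 to 8. In the left panel the 3 orange triangles, at 119 to 255 FPKM of fibroblast markers, lie at or near the upper WT libraries, 1 of them to the right of the WT maximum of 243, and in the right panel they lie farthest right, at 3023 to 3643 FPKM of HIF target RNA.

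Mean marker levels were entered into the fit as covariates, and the comparison was repeated on subsets of libraries. With mean smooth muscle marker level added to the model, 2 members passed, Igfbp4 at 0.86 (SE 0.26, adjusted p = 0.033) and Igfbp6 at 0.97 (SE 0.30, adjusted p = 0.041), while 6.85% of all genes were higher and 7.34% lower. Igfbp3 then differed by 1.22 (adjusted p = 0.113), Igfbp7 by 1.01 (adjusted p = 0.0504), Igfbp5 by 0.86 (adjusted p = 0.395) and Igfbp2 by 0.05 (adjusted p = 0.921). With the fibroblast mean as a covariate, 0 of 6 passed (5.83% of all genes were higher and 5.85% lower), with differences from -0.84 for Igfbp2 to 0.68 for Igfbp6 and adjusted p from 0.212 to 0.972. Most smooth muscle and fibroblast markers were themselves higher in HIF2, so cell share and genotype cannot be told apart by either fit.

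In the libraries low in smooth muscle RNA, HIF2 replicates 6 to 8 against 8 WT libraries without replicate 3, Igfbp3 rose by 1.25 (SE 0.33, limma adjusted p = 0.021) and Igfbp4 by 0.97 (SE 0.28, adjusted p = 0.0313), with 8.99% of all genes higher. Igfbp7 differed by 1.27 (adjusted p = 0.0575), Igfbp6 by 0.80 (adjusted p = 0.0667) and Igfbp5 by 0.68 (adjusted p = 0.0703). Igfbp2 differed by 0.15 (SE 0.28, adjusted p = 0.761). Fibroblast sums were higher in these 3 HIF2 libraries than in 7 of those 8 WT libraries, and the Y-linked gene Ddx3y was at most 0.217 FPKM in all 3. Its median over all 9 HIF2 libraries was 22.0 FPKM, so the split of HIF2 by replicate number went partly with Y-linked RNA. Over all 18 libraries, the 6 calls were kept with Ddx3y as a covariate, and no such fit was made for this subset. In HIF2 replicates 0 to 5 against 9 WT libraries all 6 passed, from 2.37 for Igfbp6 to 3.37 for Igfbp2 (12.4% of all genes were higher).

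**Figure D3:**
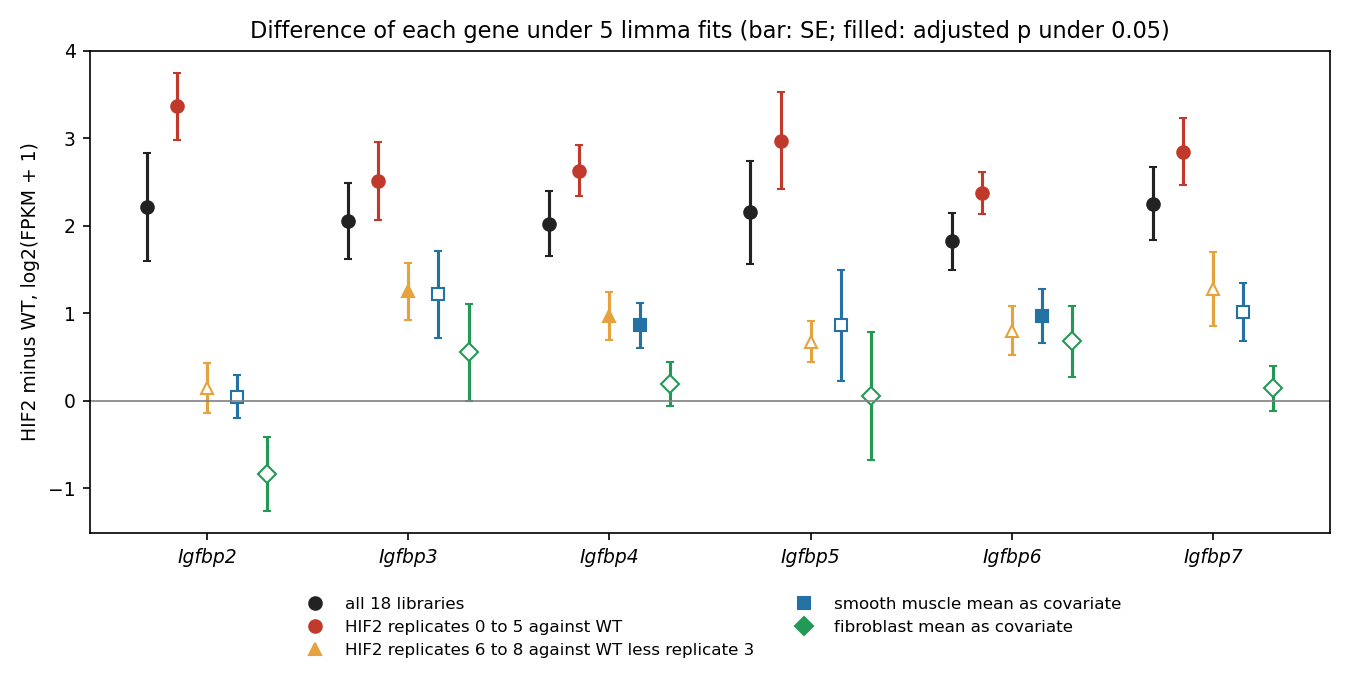
Log2 difference of each gene, HIF2 minus WT on the log2(FPKM + 1) scale, under 5 limma fits, with the SE as bars and filled symbols where the adjusted p was under 0.05. All 6 genes are filled for all libraries and for HIF2 replicates 0 to 5, Igfbp3 and Igfbp4 for HIF2 replicates 6 to 8, Igfbp4 and Igfbp6 with the smooth muscle covariate, and none with the fibroblast covariate.

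The 3 genes whose levels followed each member most closely, after each group's mean was taken away, are given as Pearson r over 18 libraries, as a description, since the libraries share their differences in stromal RNA and HIF2 falls into separate clusters. Igfbp2 went with Flnc (0.986), Smtn (0.979) and Htra3 (0.974), of which filamin C and smoothelin are proteins of muscle. Igfbp7 went with Col4a2 (0.981), Col6a2 (0.976) and Col4a1 (0.971), chains of basement membrane and microfibrillar collagens. Igfbp4 went with Arhgef17 (0.975), Tgfbr3 (0.968) and Nfic (0.966), and Igfbp6 with Ptgis, prostacyclin synthase (0.888), Pbx3 (0.846) and Gdf10 (0.842). Igfbp3 went with Sh3pxd2b (0.953), Sept11 (0.947) and Tnc, tenascin C (0.947), and Igfbp5 with Pi15 (0.966), Sh3pxd2b (0.965) and Mmp19 (0.964). Without HIF2 replicate 0 the values for Igfbp3 and its 3 genes were 0.863, 0.845 and 0.875, and the closest gene became Postn, periostin, at 0.924. Those for Igfbp5 were then 0.911, 0.890 and 0.891, and its closest gene became St3gal2 at 0.977. Among members, Igfbp4 and Igfbp7 were most alike over all 18 libraries (0.932), followed by Igfbp3 and Igfbp5 (0.899), and Igfbp3 with Igfbp2 or with Igfbp6 least (0.432 for both). This order rested partly on HIF2 replicate 0: without it, Igfbp4 and Igfbp5 were most alike (0.965, from 0.824), Igfbp3 and Igfbp5 stood at 0.708, and Igfbp3 stood at 0.685 with Igfbp2 and at 0.470 with Igfbp6.

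Around the binding proteins, 36 other genes of the IGF pathway were listed, of which 26 were tested, 13 rose and 3 fell (median log2 difference 0.58), beside 11% and 11.1% of all tested genes. Of the 13, 5 (Igf1, Pappa, Ctgf, Wisp1 and Htra3) had WT means under 1 FPKM and passed the filter only through HIF2, so these counts, and those of the lists below, are descriptions. Ligand RNA rose with that of the binding proteins. Igf1 ran from 0.0881 to 2.38 FPKM in WT and from 0.425 to 8.004 in HIF2, with 7 HIF2 libraries above WT, a log2 difference of 1.65 (SE 0.34, limma adjusted p = 0.00222). Igf2, below the filter, averaged 0.236 ± 0.165 and 0.891 ± 0.474 FPKM (WT, then HIF2, SD, n = 9 each, exact permutation p = 0.00107). Ins1 was listed at 0 throughout and Ins2 above 0 in a single WT library. The IGFBP sum was 21.4 times the summed Igf1 and Igf2 FPKM at the WT median and 17.4 times at the HIF2 median, with overlapping ranges of 14.4 to 56.1 and 13.2 to 50.9. With the fibroblast covariate Igf1 no longer differed in that direction (-0.10, adjusted p = 0.778), and in HIF2 replicates 6 to 8 it differed by 0.65 (adjusted p = 0.197).

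Receptor genes changed less. Against the same background of 11% higher and 11.1% lower, 0 of 4 tested receptor genes rose and 1 fell. Igf1r, the signalling receptor, averaged 4.57 ± 2.02 FPKM over HIF2 and 2.84 ± 0.88 over WT libraries (log2 difference 0.49, SE 0.19, limma adjusted p = 0.0779). Igf1r was not called in 15 of 18 fits that left out a library. The fits of this kind that did call it included the 1 without WT replicate 3 (0.55, adjusted p = 0.0489). Among other fits, it was called with HIF2 replicates 0 to 5 against WT (0.78, adjusted p = 0.00207) and with array weights (0.55, adjusted p = 0.00816). Igf2r, which clears IGF-II, was 38.1 ± 2.76 FPKM over WT and 35.8 ± 5.17 over HIF2 libraries (-0.10, SE 0.08, adjusted p = 0.424), and Insr, the insulin receptor, 20.7 ± 2.59 over WT and 17.2 ± 3.25 FPKM over HIF2 libraries (-0.27, SE 0.11, adjusted p = 0.0755). The insulin receptor-related gene Insrr fell from 1.66 ± 0.532 to 0.886 ± 0.278 FPKM (-0.49, SE 0.14, adjusted p = 0.0147), which did not pass beside the smooth muscle markers (adjusted p = 0.0992), beside the fibroblast markers (adjusted p = 0.16) or among the libraries low in smooth muscle RNA (adjusted p = 0.113).

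Downstream, 3 of 5 tested adaptor genes rose, beside 11% of all tested genes. Irs1, the docking protein of both the insulin and IGF-I receptors, ran from 1.18 through a median of 1.42 to 2.51 FPKM in WT and from 3.74 through 4.45 to 5.65 in HIF2. All HIF2 libraries thus lay above all WT libraries, as they did for 0.758% of tested genes. The log2 difference of Irs1 was 1.12 (SE 0.10, limma adjusted p = 2.11e-06), and HIF2 replicates 6 to 8, low in smooth muscle RNA, had 4.77 to 4.88 FPKM. For this gene all 35 alternatives that could be run kept the call. Grb10, an adaptor that restrains the receptors, rose by 1.57 (SE 0.26, adjusted p = 0.000399), a call lost with the fibroblast covariate (0.31, adjusted p = 0.277). Irs2 rose by 0.38 (adjusted p = 0.047), a call lost in 14 of 18 fits that left out a library (adjusted p up to 0.0858), with the replicate block (adjusted p = 0.091) and when libraries were scaled to the same sum (adjusted p = 0.139). Grb14 differed by 0.71 (adjusted p = 0.0641), and was not called in 14 of 18 fits that left out a library. Other fits that called it included HIF2 replicates 0 to 5 against WT (1.11, adjusted p = 0.00144) and array weights (0.99, adjusted p = 0.00311). The Ddx3y covariate (0.68, adjusted p = 0.043) and the replicate block (adjusted p = 0.0458) did so too. Shc1 differed by 0.04 (adjusted p = 0.815).

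Of 6 tested genes for IGFBP proteases and their inhibitors, 4 rose and 0 fell, beside 11% and 11.1% of all tested genes. Pappa, the pappalysin that cuts Igfbp4, averaged 4.66 ± 5.67 FPKM over HIF2 and 0.775 ± 0.596 over WT libraries (log2 difference 1.34, SE 0.35, limma adjusted p = 0.00914), with 19.3 FPKM in HIF2 replicate 0 and a HIF2 mean of 2.83 ± 1.55 without it. Stc2, a secreted inhibitor of pappalysins, went from 9.01 ± 1.64 to 24.9 ± 11.2 FPKM (1.24, SE 0.24, adjusted p = 0.00135), highest at 32.6 to 41.7 FPKM in HIF2 replicates 6 to 8 and within the WT range in replicates 2 and 4. Pappa had 0.888 to 1.64 FPKM in replicates 6 to 8, inside its WT range, whose top of 1.96 FPKM came from replicate 3. The other WT libraries had at most 1.29 FPKM. Htra1, a serine protease, rose by 1.34 (adjusted p = 0.00106) and the lysosomal protease gene Ctsd by 0.47 (adjusted p = 0.0173), which did not pass in the exact rank test (adjusted p = 0.0515) or for HIF2 replicates 0 to 5 alone (adjusted p = 0.106). Pappa2 differed by 0.44 (adjusted p = 0.161) and was called higher among HIF2 replicates 6 to 8 (0.93, adjusted p = 0.000568) or beside the smooth muscle markers (0.85, adjusted p = 0.028). Stc1 differed by 0.67 (adjusted p = 0.33), with 23.4 FPKM in HIF2 replicate 0. Without that library the difference was 0.21 (adjusted p = 0.379) and the HIF2 mean of Stc1 went from 2.96 to 0.41 FPKM.

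Proteins outside the family that share the IGFBP domain went in both directions, with 4 of 7 tested genes higher and 2 lower, beside 11% and 11.1% of all tested genes. Ctgf rose by 1.89 (SE 0.51, limma adjusted p = 0.0125), Cyr61 by 1.40 (SE 0.26, adjusted p = 0.00105), Wisp1 by 1.02 (SE 0.29, adjusted p = 0.0155) and Htra3 by 1.502 (SE 0.35, adjusted p = 0.00482). Ctgf, Cyr61 and Wisp1 encode matricellular CCN proteins, as does Nov, which moved the other way. Nov averaged 86.7 ± 38.8 over WT and 27.8 ± 24.4 FPKM over HIF2 libraries (SD, n = 9 each), with a log2 difference of -1.96 (SE 0.47, adjusted p = 0.00578), with 4.79 to 11.3 FPKM in HIF2 replicates 6 to 8 and 10.4 in replicate 0. Replicate 5 had 24.9 FPKM, just under the WT minimum of 26.4, and replicates 1 to 4, at 27.4 to 79.0 FPKM, lay inside the WT range. All 36 alternatives kept the direction and the call of Nov. Crim1, a membrane protein, changed by -0.47 (SE 0.12, adjusted p = 0.00779), a call lost with upper quartile scaling (adjusted p = 0.0558) and among HIF2 replicates 0 to 5 alone (adjusted p = 0.0512). Among cell surface partners Cd93, an endothelial receptor of Igfbp7, rose by 1.46 (SE 0.27, adjusted p = 0.000973). All 9 HIF2 libraries lay above WT for Cd93 and for Cyr61, beside 0.758% of all tested genes. Lrp1 and Tmem219 differed by -0.06 and -0.26 (adjusted p = 0.877 and 0.33). Lrp1, a scavenging receptor, was called lower with the smooth muscle covariate (-0.69, adjusted p = 0.013), with the fibroblast covariate (-0.997, adjusted p = 0.00542) and among the libraries low in smooth muscle RNA (-0.66, adjusted p = 0.0412).

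Most of these pathway calls were also lost with the fibroblast mean as a covariate, a fit in which 5.83% of all genes were higher and 5.85% lower. Since fibroblast markers were themselves higher in HIF2, a lost call does not tell cell share from genotype. With the fibroblast covariate, 3 pathway genes stayed higher, Irs1 at 1.01, Stc2 at 1.98 and Ctsd at 0.93 (limma adjusted p = 0.00111, 0.00152 and 0.00235). The other 10 calls, of Igf1, Irs2, Grb10, Pappa, Htra1, Ctgf, Cyr61, Wisp1, Htra3 and Cd93, were lost there (adjusted p from 0.232 for Ctgf to 0.95 for Wisp1), and Igf1, Ctgf and Htra3 changed sign. In HIF2 replicates 6 to 8, Igf1, Pappa, Htra1, Ctgf, Wisp1 and Htra3 did not pass (adjusted p from 0.0884 for Pappa to 0.807 for Ctgf). Ctgf was also not called in the exact rank test (adjusted p = 0.0765).

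**Figure D4:**
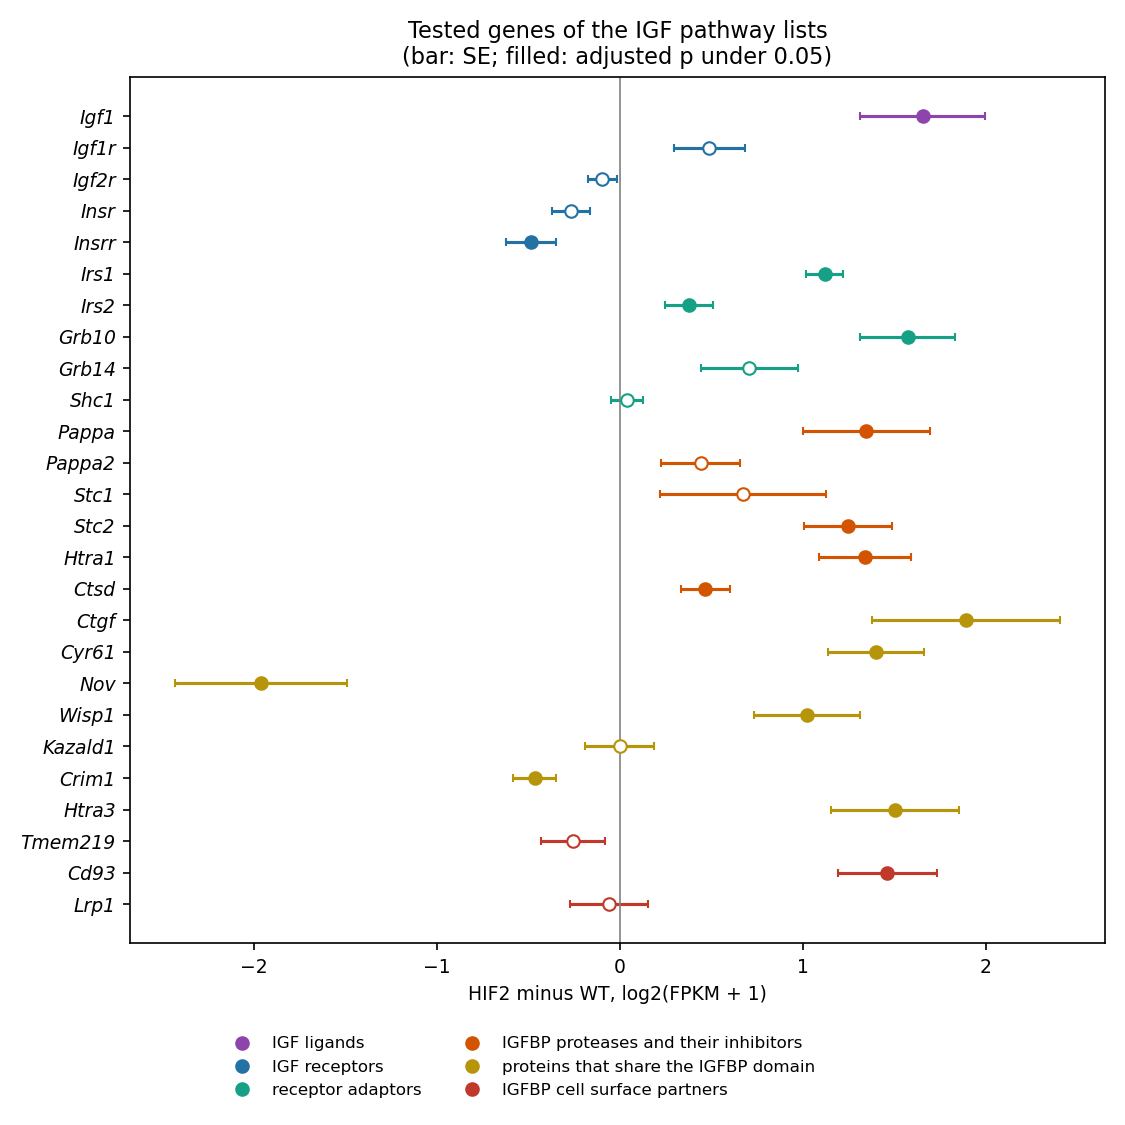
Log2 difference, HIF2 minus WT on the log2(FPKM + 1) scale, of the 26 tested genes of the IGF pathway lists, with the SE as bars, colours for the lists and filled symbols where the limma adjusted p was under 0.05. Filled symbols lie right of 0 for 13 genes and left of 0 for Insrr, Nov and Crim1.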

How the data were processed

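Polyadenylated RNA from 18 colon libraries was sequenced after TruSeq v2 preparation, per the labels' protocols. The authors deposited FPKM, 1 column per library. Tools listed in the submitters' processing notes, with no order or role, include Cuffdiff 2.1.1, Cufflinks, TopHat2 2.0.9 and Bowtie2 2.1.0.0, and the build listed is mm10. Which gene models and strand option were used is not given, so overlapping genes cannot be told apart, and depth is unknown.

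Each FPKM value was put on the log2(FPKM + 1) scale with no other normalization, on which a fold change of a gene near 0 comes out too small. The 13976 genes with a mean of at least 1 FPKM were fitted in R 4.3.3 using limma 3.58.1 (eBayes with trend, tests 2-sided), and p-values were adjusted over all of them at 0.05. Single genes were also given an exact permutation test over 48620 splits, 2-sided and unadjusted. On simulated data with 200 of 13976 genes changed, 80% of genes changed 2-fold and 95% of those changed 4-fold were found. Beside these, 11 were called in error, and the fit made 0 calls when none was changed. The rate of calls in error for libraries that fall into clusters, as HIF2 does here, was not tested.

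The members, gene lists, marker lists, rule for named genes and subsets of libraries were chosen with earlier results of these data known. Named genes were all members, pathway genes that passed or that encode ligands or receptors, and the 3 genes with the highest r for each member. Other pathway genes were named after their values were seen. Of the markers, Ly6g and Hbb-bs matched no row and Adgre1 was taken from the row of its older symbol, Emr1. Markers of mesothelium, enteric neurons, macrophages and red blood cells gave 2 of 3, 3 of 3, 9 of 9 and 2 of 3 tested genes higher, those of neutrophils 0 of 2 and those of liver 0 of 3 higher and 1 lower. Of 9 epithelial markers 4 were lower, and of 5 sex-linked genes 0 passed between the groups. Within HIF2, however, Xist was at 114 to 189 FPKM in replicates 6 to 8 and had a median of 0.613 FPKM over all 9 libraries. Also tried were other pseudocounts (0.1, 0.01), other filters (5 FPKM, none), 3 scalings, an exact rank test, array weights, a robust prior, the replicate block, 3 covariates (smooth muscle, fibroblast, Ddx3y), library subsets, and leaving out each library. Promoter windows are from RefSeq. Figures were drawn with matplotlib 3.10.9.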

Additional observations from a re-analysis of the deposited data

Results flagged for a closer look

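The 33 genes looked at, the members and all tested pathway genes, gave 64 groups of 9 libraries, since Igfbp1, at 0 throughout, gave none. In these, 10 values stood apart from the rest of their group by the ratio of the gap to the group's range on the log2(FPKM + 1) scale, past Dixon's critical value. Chance flags about 1 group in 20 of normal values, but these groups share libraries, so the flags are not independent. HIF2 replicate 0 was the highest library in 8 of them, most of all for Stc1, with 23.4 against 0.994 FPKM (ratio 0.816), and Shc1, with 45.1 against 30.5 FPKM (ratio 0.696). Its Igfbp3 was 106 FPKM against 14.4 in the next library (ratio 0.596), and its Igfbp5 was 185 against 17.7 FPKM (ratio 0.548). The same library had 19.3 FPKM of Pappa against 5.15 (ratio 0.502), 15.4 FPKM of Cyr61 against 6.23 (ratio 0.544), 8.94 FPKM of Wisp1 against 2.75 (ratio 0.496) and 16.3 FPKM of Cd93 against 5.97 (ratio 0.546). This library held the most endothelial marker RNA, 134 FPKM, and the most neutrophil marker RNA, 760 FPKM, and the part of either in these values was not tested. In WT, replicate 3 had 4.95 FPKM of Igfbp2 against 1.18 in the next library (ratio 0.564), beside the highest smooth muscle sum of its group, 1121 FPKM. WT replicate 6 had 1.68 FPKM of Pappa2 against 1.32 in the next library (ratio 0.549).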

How the results depend on the processing

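Among the 6 tested members, 200 of 215 refits kept direction and call. Leaving out each library kept all 6 calls, with differences of 1.94 to 2.55 for Igfbp2, 1.68 to 2.26 for Igfbp3, 1.87 to 2.23 for Igfbp4, 1.64 to 2.39 for Igfbp5, 1.69 to 1.99 for Igfbp6 and 2.07 to 2.46 for Igfbp7. The replicate block (the shared number as a factor) kept all 6, with adjusted p from 0.0028 to 0.0193, and gave 1355 higher and 1345 lower genes. The numbers did not pair the libraries: the correlation of deviations was over 0.1 in 1 of 9 pairs (-0.03 to 0.11), and 0 libraries matched best with their own number. Leaving out HIF2 replicate 0 and WT replicate 3 together, added after the data were seen, kept 6 members.

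With the smooth muscle covariate the members called fell to 2, with the fibroblast covariate to 0 and in HIF2 replicates 6 to 8 to 2. The differences not called there were 0.0484, 1.22, 0.863 and 1.01 for Igfbp2, Igfbp3, Igfbp5 and Igfbp7 with the smooth muscle covariate, 0.554, 0.192, 0.0591, 0.681 and 0.144 for Igfbp3 to Igfbp7 with the fibroblast covariate, and 0.145, 0.675, 0.802 and 1.27 for Igfbp2, Igfbp5, Igfbp6 and Igfbp7 in HIF2 replicates 6 to 8. Igfbp2 reversed to -0.838 with the fibroblast covariate, and its difference of 2.22 was not called in the exact rank test. Igfbp6 was not tested with the filter at 5 FPKM. Higher pathway genes numbered 3 with that filter, 7 and 3 with the covariates and 8 in HIF2 replicates 6 to 8, against 13. Of the 13, only Irs2, Stc2, Htra1 and Ctsd were tested with that filter, and Irs2 was not called (limma adjusted p = 0.0504). Over all genes the calls were 640 higher with that filter, 2407 higher without one, 958 higher and 1026 lower with the smooth muscle covariate, 815 and 818 with the fibroblast covariate, and 2426 and 940 with upper quartile scaling. That scaling moved the median of all genes by 0.102 and the share of higher calls from 49.6% to 72.1%, and the filters gave 33.8% and 60.8%. The cause of these changes was not tested.

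Among the 26 tested pathway genes these differences changed sign. With the fibroblast covariate Igf1 was -0.099, Igf1r -0.324, Igf2r 0.121, Ctgf -0.652, Htra3 -0.214, Grb14 -0.187, Stc1 -0.119 and Shc1 -0.0194. With the smooth muscle covariate Igf1r was -0.0126 and Igf2r 0.0657. In HIF2 replicates 6 to 8 Igf1r was -0.0319, Igf2r 0.0812, Grb14 -0.0705, Stc1 -0.0483 and Shc1 -0.0271, and in replicates 0 to 5 Lrp1 was 0.281 and Kazald1 0.108. Upper quartile scaling gave Igf2r 0.0153, Lrp1 0.0489 and Kazald1 0.0759, and array weights gave Shc1 -0.0239, Lrp1 0.0325 and Kazald1 0.139. Without HIF2 replicate 0 and WT replicate 3, Shc1 was -0.0457 and Kazald1 0.0401. Leaving out each library gave -0.0383 to 0.0604 for Shc1, -0.136 to 0.0609 for Lrp1 and -0.0633 to 0.0941 for Kazald1, each on both sides of 0. Unknown depth limits all low values, above all Igfbp2 and Igfbp6 in WT.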
